A study of Daphnia magna with 3 samples.

Results

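The haemoglobin genes of the water flea Daphnia magna were examined in 3 wild-type RNA sequencing libraries. Their records were chosen by the words hemoglobin or haemoglobin in the description the authors gave each gene model, a rule that uses no measured value, although earlier results of these data were known when haemoglobin was picked. The rule found 27 of the 47109 records. Of these, 19 lay on scaffold01361 between positions 1120871 and 1143507, a stretch of 22637 bp, and 8 lay on 4 other scaffolds.

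Daphnia haemoglobin is an oxygen carrier dissolved in the haemolymph rather than packed in blood cells. The circulating molecule is a large complex of globin chains, each of which carries a pair of haem-binding domains in a row, which is why many records are named 2-domain hemoglobin. The animals are known for making more of it, and turning red, when oxygen is scarce, and low oxygen also changes which chains are made.

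All 3 libraries belonged to the same group, and none was a treatment or a mutant. Each was made from the whole bodies of 5 pooled wild-type females of the NIES strain at the age of 12 days, when they released clutch 2, fed daily with algae and freed of the eggs in the brood chamber. The study used them as its well-fed reference, and its starved and mutant libraries were not analysed here. The study's methods describe repeats of each treatment for triplicate sampling and refer to these libraries as prepared elsewhere in the same way. The labels number the samples without naming separate cultures, so the spread between them may hold culture and library preparation alike.

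Gene records held 8679171 to 9092389 counts per library, and 0 counts still allowed a level of 0.309 to 0.354 CPM. CPM stands for counts brought to a common library size by the trimmed mean of M-values (TMM). Whole-body RNA was present in each library. Descriptions of the yolk precursor vitellogenin took 4.49% to 8.02% of the counts, those of trypsin or chymotrypsin from the gut 1.15% to 1.35%, and those of muscle myosin heavy chain or troponin 0.410% to 0.568%.

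To find how much of the transcriptome was haemoglobin, the counts of the 27 records were summed. They came to 134016 in replicate 1, 136409 in replicate 2 and 181263 in replicate 3. As a share of all record counts this was 1.52% (95% Wilson interval 1.51 to 1.52), 1.57% (1.56 to 1.58) and 1.99% (1.98 to 2.00). Replicate 3 stood above the other libraries, and the intervals, which cover counting error only, did not overlap. The mean was 1.69% ± 0.261 (SD, n = 3). Scaled by TMM the sums were 15828, 16056 and 18684 CPM, so replicate 3 was highest there too, by a smaller margin. In whole-body RNA, fewer haemoglobin-making cells and less haemoglobin RNA per cell cannot be told apart.

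The cluster on scaffold01361 held 99.2%, 99.3% and 99.2% of these counts in replicates 1, 2 and 3, and the records elsewhere held 1063, 972 and 1448 counts. Among the haemoglobin records of the cluster, most counts fell to a pair, Dapma7bEVm020057sc01361NoSplit and Dapma7bEVm028977sc01361NoSplit. Together they took 89.7%, 94.0% and 91.5% of all haemoglobin counts. These shares leave out the cluster's records without a description, which received 63489, 70271 and 104905 counts in sum. Record names are shortened below to the model number, as EVm020057 and EVm028977. The remaining 25 records shared what was left.

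The most abundant haemoglobin record was EVm020057, described as a 2-domain hemoglobin (scaffold01361, 1138100 to 1143490, minus strand, transcript length of 1088 bp). It received 62413, 76227 and 100837 counts in replicates 1, 2 and 3, or 7371, 8972 and 10394 CPM. Replicate 1 was the lowest library and replicate 3 the highest, a 1.41-fold range. Its mean of 8912 ± 1512 CPM (SD, n = 3) made it number 9 of all records by CPM, and number 7 by TPM, which takes transcript length into account.

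EVm028977, described as Hemoglobin (1123763 to 1125436, minus strand, 1232 bp), lay at the other end of the cluster. Its counts were 57751, 51964 and 65053, and its levels 6821, 6117 and 6705 CPM, a mean of 6548 ± 378 CPM (SD, n = 3). Here replicate 2 was the lowest library and the range was 1.12-fold, narrower than for EVm020057. It was number 11 of all records by CPM and number 14 by TPM.

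Next by CPM came part 2 of the split model EVm015299, a 2-domain hemoglobin (1120871 to 1122560, minus strand, 1164 bp), with 7312, 3105 and 7002 counts. Its levels were 864, 365 and 722 CPM (650.3 ± 257, SD, n = 3), and replicate 2 lay below both others in a 2.36-fold range. EVm018388, a 2-domain hemoglobin protein subunit (1124339 to 1136945, minus strand, 615 bp), received 4179, 3455 and 5520 counts, or 494, 407 and 569 CPM (489.7 ± 81.2, SD, n = 3). Its libraries spread over 1.40-fold, again with replicate 2 lowest.

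Part 1 of EVm015367, a 2-domain hemoglobin (1124009 to 1129696, minus strand, 949 bp), was the last with a mean of at least 100 CPM. It received 1226, 635 and 1308 counts, or 145, 74.7 and 135 CPM (118 ± 37.9, SD, n = 3). Replicates 1 and 3 lay close together, with replicate 2 below them in a 1.94-fold range.

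**Figure D1:**
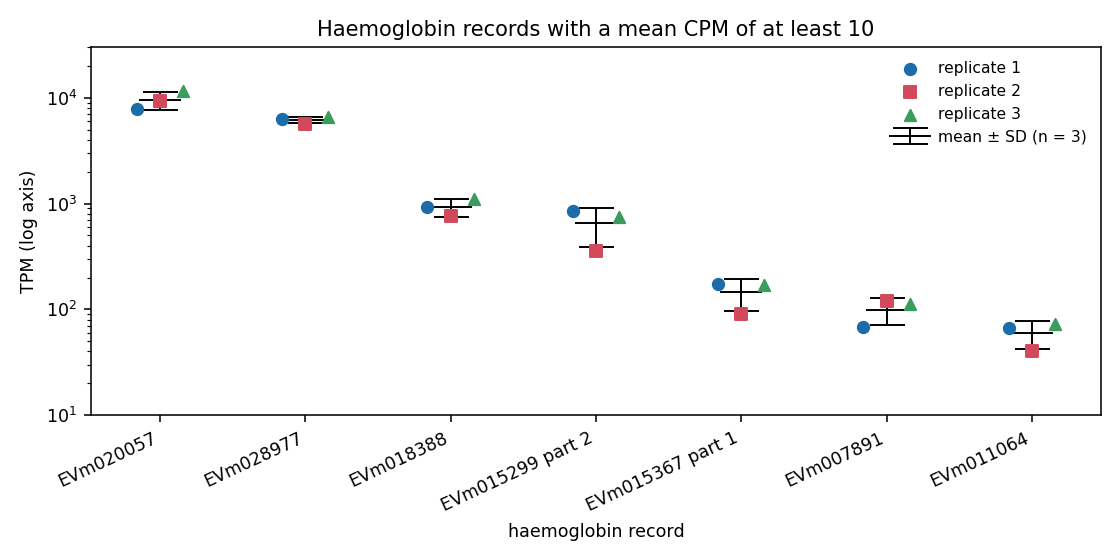
TPM on a log axis of the 7 haemoglobin records with a mean of at least 10 CPM, as points for replicates 1, 2 and 3 with the mean and SD (n = 3). EVm020057 and EVm028977 stand at 5672 to 11499 TPM, and no other record exceeds 1114 TPM.

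The other 14 cluster records were scarce or silent. Part 2 of EVm015367 (1132910 to 1133303) had 19, 12 and 26 counts and EVm021628 (1138725 to 1143490) had 41, 31 and 50. EVm028876, a model 21831 bp long that spans most of the cluster, had 7, 5 and 7. No other cluster record exceeded 4 counts in a library, and 5 of the 19 had 0 counts in every library.

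Outside the cluster, a Hemoglobin record and a hemoglobin subunit-like protein were the most abundant. EVm011064 (scaffold00626, 636696 to 640034, plus strand) had 784, 472 and 931 counts, or 92.6, 55.6 and 96.0 CPM, so that replicate 2 was lowest. EVm007891 (scaffold00044, 17353 to 17996, minus strand) had 257, 458 and 462 counts, or 30.4, 53.9 and 47.6 CPM, so that replicate 1 was lowest. These records had means of 81.4 ± 22.4 and 43.96 ± 12.2 CPM (SD, n = 3).

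The other 6 records elsewhere had few counts. EVm011664, a 2-domain hemoglobin on scaffold00626 (211319 to 212591), had 10, 29 and 33 counts. EVm002046, the only record described as a hemoglobin chain, and EVm011771, a 2-domain hemoglobin protein subunit, lie near each other on scaffold02452 and had 11, 5 and 16 counts and 1, 8 and 6 counts. The remaining 3 had 0 counts in every library.

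To rank the records, levels were compared per length as TPM among the 11 that averaged at least 10 counts. EVm020057 led with 7758, 9421 and 11499 TPM and EVm028977 followed with 6340, 5672 and 6551 TPM. EVm020057 was higher in 3 of 3 libraries, by 1.22, 1.66 and 1.76-fold, a mean log2 difference in TPM of 0.61 ± 0.28 (SD, n = 3).

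A pair of neighbours was taken to differ beyond its spread where the mean log2 difference exceeded 2 SD with the same sign in every library. This held for 4 of the 10 neighbouring pairs. They were EVm020057 above EVm028977, EVm028977 above EVm018388 (6.73-fold), part 2 of EVm015299 above part 1 of EVm015367 (4.39-fold), and EVm011064 above part 2 of EVm015367 (8.06-fold). The other 6 pairs did not differ beyond their spread. For EVm018388 above part 2 of EVm015299 the log2 difference in TPM was 0.59 ± 0.48, for part 1 of EVm015367 above EVm007891 it was 0.53 ± 0.89, and for EVm007891 above EVm011064 it was 0.73 ± 0.79 (SD, n = 3). With 3 libraries the smallest two-sided p of an exact permutation test by sign flips is 0.25, and each of the 4 pairs had that value, or 0.357 after Benjamini-Hochberg adjustment over the 10 pairs.

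The TPM ratios between records differed between the libraries, and reads shared by overlapping records could enter these ratios. The TPM of EVm020057 was 9.13, 26.3 and 15.4 times that of part 2 of EVm015299 in replicates 1, 2 and 3, a 2.88-fold range set by a high value in replicate 2. Between part 2 of EVm015299 and part 1 of EVm015367 the ratio was steadier, at 4.86, 3.99 and 4.36.

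**Figure D2:**
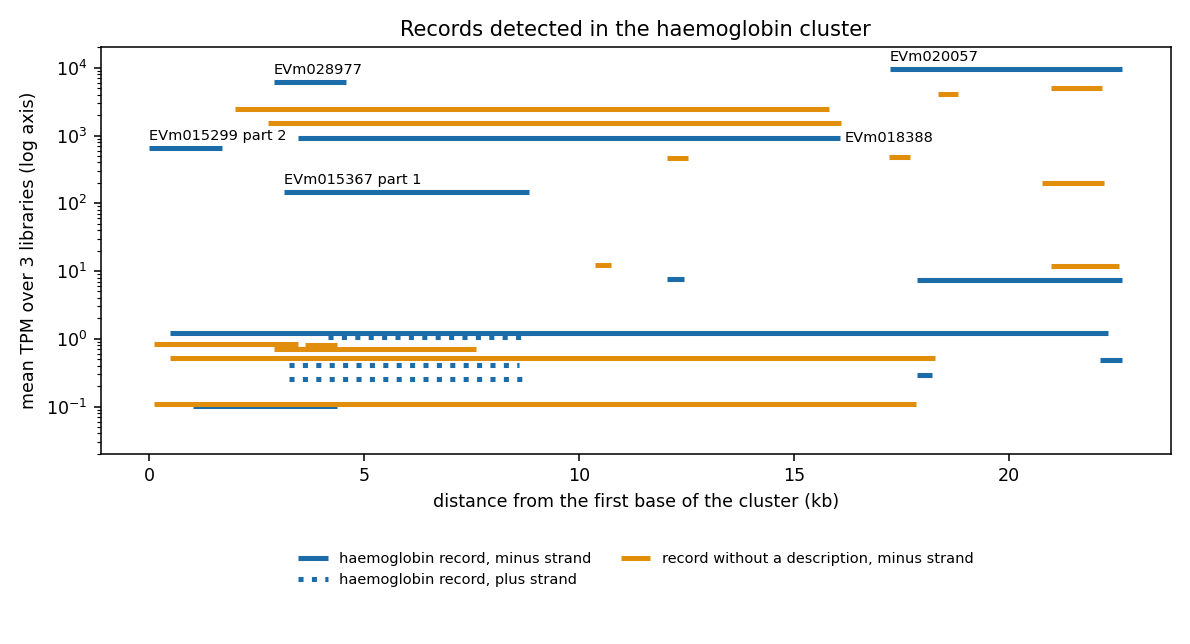
Position along the cluster in kb from its first base against the mean TPM over the 3 libraries on a log axis. Each line is a detected record, blue for haemoglobin and orange for records without a description, solid for the minus strand and dotted for the plus strand. The haemoglobin records of highest level lie toward the ends of the cluster, EVm028977 at the left and EVm020057 at the right.

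The gene models of the cluster overlapped one another. Overlap was counted between whole spans from start to end, introns included, on either strand. All 19 cluster records overlapped at least 1 other record, which was certain because a sodium/potassium-transporting ATPase record spans the whole cluster. Their median was 25 overlapping records each. Of the 27 haemoglobin records 25 overlapped another (92.6%), against 74.0% of all records. Overlap of spans does not measure shared reads. Reads from such models, and from near-identical chains, may have been split among them in mapping, so that the level of a single cluster record is uncertain. EVm007891 and EVm011664 were the only haemoglobin records that overlapped none.

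The strands differed. The 16 minus-strand cluster records held nearly all counts, and the 3 plus-strand ones, which lie inside the span of EVm028977 to part 1 of EVm015367, had 5, 2 and 7 counts in sum in replicates 1, 2 and 3. The sources used here do not say whether strand was used in counting.

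The cluster also held 28 records without any description, and no described record other than haemoglobin. Of the 28, 14 had 0 counts in every library, among them all 6 on the plus strand. The others received 63489, 70271 and 104905 counts in sum, which was 0.478, 0.519 and 0.583 of the counts in the haemoglobin records of the cluster.

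The most abundant of them was part 1 of EVm630212 (1141842 to 1143023, 854 bp), which lies within EVm020057. It had 23637, 31346 and 42908 counts, or 3635 ± 817 CPM (SD, n = 3), and ranked number 17 of all records by CPM. Part 2 of EVm644813 (1122866 to 1136679) had 2091 ± 459 CPM, EVm644812 (1123636 to 1136960) 1534 ± 305 CPM, and part 2 of EVm630212 (1139211 to 1139686) 1072 ± 173 CPM (SD, n = 3). Counting these records with haemoglobin would raise its share to 2.23%, 2.38% and 3.15% in replicates 1, 2 and 3. Whether they are haemoglobin transcripts is not said by the deposited annotation, and was not tested.

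**Figure D3:**
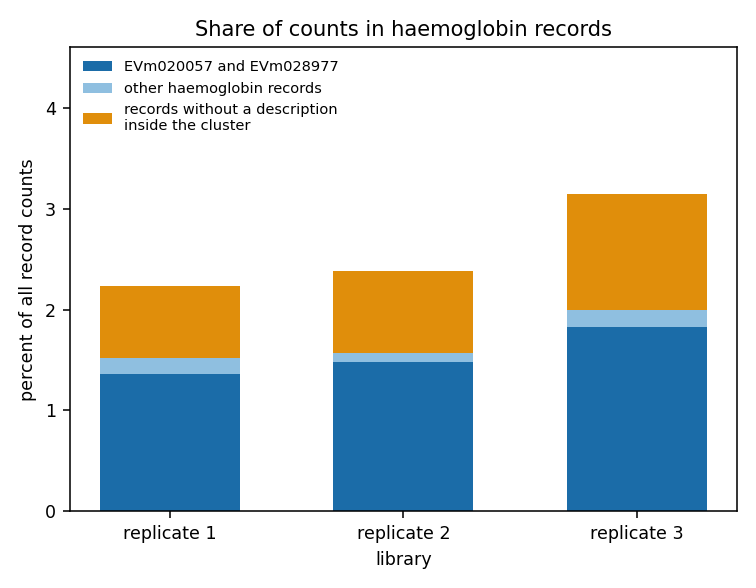
Percent of all record counts in each library, stacked as EVm020057 with EVm028977, the other haemoglobin records, and the undescribed records inside the cluster. The haemoglobin records take 1.52%, 1.57% and 1.99% in replicates 1, 2 and 3, and with the undescribed records 2.23%, 2.38% and 3.15%.

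The described records around the cluster stood far below its top pair of haemoglobin records, and undescribed neighbours were not examined. The described neighbours within 10000 bp were a beta-mannosidase (1108781 to 1112667, 33.8 TPM), a geranylgeranyl transferase type-1 subunit (1148248 to 1150032, 20.6 TPM) and a cytoplasmic phosphatidylinositol transfer protein (9.06 TPM). A plus-strand record of a sodium/potassium-transporting ATPase (875104 to 1448276) spans the whole cluster, at 30.9 TPM.

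To ask whether the libraries differed by more than counting noise, a chi-square test of homogeneity was run on all 15516 records that averaged at least 10 counts, adjusted by Benjamini-Hochberg. Of the 27 haemoglobin records 11 reached that count, and 8 of these varied beyond counting noise, beside 54.5% of all records tested. The 8 were the 5 cluster records with a mean of at least 100 CPM and, elsewhere, EVm011064 (adjusted p = 7.15e-23), EVm007891 (adjusted p = 2.50e-12) and EVm011664 (adjusted p = 0.0113). EVm028977 was among them (adjusted p = 2.77e-80) although its range was 1.12-fold, since its counts were high. EVm021628 (adjusted p = 0.374), part 2 of EVm015367 (adjusted p = 0.244) and EVm002046 (adjusted p = 0.169) did not pass.

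With counting noise inflated by the median chi-square of all records, 6 of 11 passed, beside 12.3% of all records. The shares of all records, here and above, were not matched for level. Tested haemoglobin records had a median of 81.4 CPM, against 13.9 CPM over all tested records, and abundant records pass more readily. The shares therefore do not show that haemoglobin records varied more than others of their level. EVm007891 (adjusted p = 0.0711) and EVm011664 (adjusted p = 0.954) were lost. They were lost also without replicate 1, while EVm011064 (adjusted p = 0.666) and part 1 of EVm015367 (adjusted p = 0.0924) were lost without replicate 2. The median biological coefficient of variation, from an intercept-only edgeR fit, was 0.277 over the 11 records, with a range of 0.190 to 0.474, and 0.263 over 15816 records, which were not matched for level.

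The libraries did not depart from each other in the same way in every haemoglobin record. Among the 11 tested records, inside and outside the cluster, replicate 2 was the lowest library in 8 and replicate 3 in none. Over all tested records replicate 2 was lowest in 30.0% and replicate 3 in 32.9%. Each record counts alike here whatever its level, and overlapping records may share reads. The summed CPM of all haemoglobin records was lowest in replicate 1, as was that of EVm020057. Replicate 2 was at least 1.5-fold below both other libraries in 3 of the 7 haemoglobin records with a mean of at least 10 CPM, beside 1.55% of the 8976 records at that level. The 3 were part 2 of EVm015299, part 1 of EVm015367 and EVm011064. Replicate 1 was as far below in 1 of the 7, EVm007891, beside 4.98%, and replicate 3 in 0 of 7, beside 4.42%. In 0 of 7 did replicate 1, 2 or 3 lie as far above both others, beside 5.45%, 1.75% and 0.880% of all records. At 2-fold 0 of the 7 had a library apart on either side, beside 2.33%, 0.301% and 1.08% of all records with replicate 1, 2 or 3 below and 0.357%, 0.368% and 0.156% with it above.

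When the 16 tested records inside the cluster were placed in order, described or not, a gap of 1124 bp that none of the 16 covered (1136961 to 1138084) divided them. The division was chosen after the values were seen and has no test, and overlapping records may share reads. In the 9 records on the side of lower coordinates, which holds EVm028977, replicate 2 was lowest in 9 of 9. Their summed CPM was 11895, 10082 and 12837 (11605 ± 1400, SD, n = 3).

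In the 7 records on the side of higher coordinates, which holds EVm020057, replicate 1 was lowest in 6, with EVm021628 the exception, and replicate 3 was highest in 6. Their summed CPM was 11303, 14129 and 16507 (13980 ± 2605, SD, n = 3). The counts of lowest libraries were the same under DESeq2 size factors and under plain count totals. The ratio of the sums, lower over higher coordinates, was 1.05, 0.714 and 0.778 in replicates 1, 2 and 3. Per length the higher side led in all 3 libraries, with summed TPM of 15299, 19129 and 23499.7 against 12458, 10377 and 14289 on the lower side. These sums include the undescribed records, and with the described records alone the higher side led in replicates 2 and 3 only. In replicate 1 the lower side had 6340 TPM in EVm028977, 919 in EVm018388 and 850 in part 2 of EVm015299. The higher side had 7758 TPM in EVm020057 and 7.63 in EVm021628. Reads shared by overlapping records could enter all these sums.

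**Figure D4:**
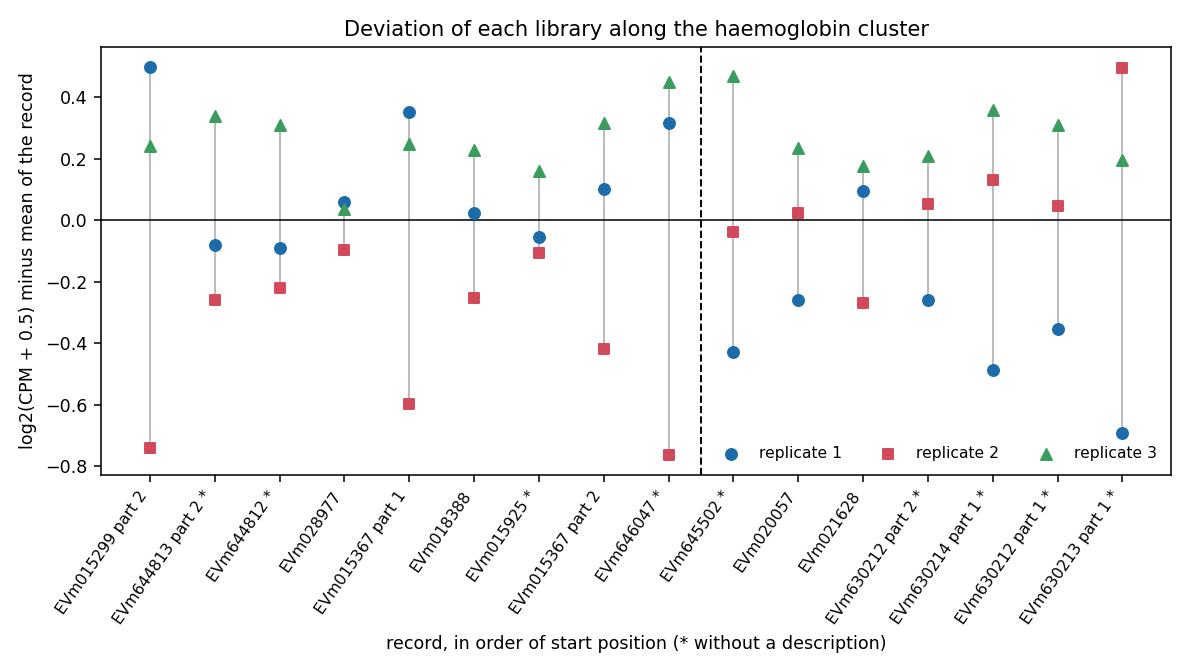
Deviation of each library from the record's own mean, in log2(CPM + 0.5), for the 16 cluster records that averaged at least 10 counts, in order of start position; an asterisk marks a record without a description and the dashed line the gap of 1124 bp. Replicate 2 is lowest in 9 of 9 records left of the line and replicate 1 in 6 of 7 to the right of it.

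To see which genes had a pattern over the libraries most like that of summed haemoglobin, whose log2 deviations were -0.09, -0.07 and 0.15, 1222 described records with a mean of at least 100 CPM were ranked by distance to it. The 5 nearest were annexin B10 isoform X2, with 298, 303 and 354 CPM and a distance of 0.00718, an uncharacterized protein (0.0187), Hepatic leukemia factor (0.0189), arrestin homolog (0.0266) and NADH dehydrogenase iron-sulfur protein 8 (0.0297). The likeness rests on 3 libraries and is a description.

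The deposited gene ontology terms belong to the same annotation as the descriptions by which the records were chosen. All 27 carried oxygen transporter activity and oxygen binding, terms that 33 records of the table carried, and 21 carried extracellular region. None of the 28 undescribed records in the cluster carried these terms. Since these records lack a description in the same annotation, this cannot tell whether they are haemoglobin.

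Haemoglobin needs haem, iron and, for its regulation, the sensing of oxygen, and the genes of these tasks stood per length below the top pair of haemoglobin records. Their highest mean was 415 TPM, of the ferritin subunit precursor, against 9559 TPM for EVm020057 and 6188 TPM for EVm028977. Of the haem synthesis enzymes 11 of 15 records were tested and 9 varied beyond counting noise, beside the 54.5% of all records. Uroporphyrinogen decarboxylase, an intermediate step, had 117, 422 and 354 CPM (298 ± 160, SD, n = 3) and was lowest in replicate 1. The most abundant record of 5-aminolevulinate synthase, which makes the first precursor, had 300, 240 and 271 CPM (adjusted p = 4.11e-12 by the chi-square test), with replicate 2 lowest. Overlapping records of the same description had replicate 3 lowest instead. They were part 2 of EVm027691, with 223, 205 and 159 CPM, and part 1, with 67.2, 54.5 and 48.4 CPM.

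For haem breakdown and binding 2 of 4 tested records varied, beside 54.5% of all records. A heme-binding protein 2-like record on the same scaffold as the cluster (1687134 to 1690273) ranged over 22.6-fold, with 8.86, 200.0 and 115 CPM, and replicate 1 was far below the others. Another record of the same name stood at 123, 131 and 133 CPM (adjusted p = 0.167 by the chi-square test).

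For iron handling 7 of 9 tested records varied, beside 54.5% of all records. The ferritin subunit precursor, part of the iron store, had 364, 345 and 366 CPM (adjusted p = 0.0667 by the chi-square test). A ferritin 3-like record had 38.0, 57.1 and 69.1 CPM (adjusted p = 6.19e-17 by the chi-square test), lowest in replicate 1. EVm015553, of the same description, was also lowest there, with 21.6, 27.9 and 36.1 CPM. Other ferritin 3-like records differed. Part 2 of EVm001658 was highest in replicate 1, with 21.1, 14.7 and 13.7 CPM. Part 2 of EVm007877 was lowest in replicate 2, with 51.7, 37.4 and 53.4 CPM.

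For oxygen sensing 5 of 8 tested records varied, beside 54.5% of all records. Among the 5 was aryl hydrocarbon receptor nuclear translocator-like protein 1 (adjusted p = 0.0211 by the chi-square test). It entered by word match, and a role in oxygen sensing was not tested. The hypoxia-inducible factor in many animals turns on genes under low oxygen. The most abundant record of its alpha subunit had 126, 115 and 86.1 CPM (adjusted p = 8.87e-16 by the chi-square test). Another record of this subunit had 90.4, 78.0 and 49.4 CPM. Both were lowest in replicate 3, where summed haemoglobin was highest, and a link with haemoglobin was not tested. The partner of the alpha subunit, the aryl hydrocarbon receptor nuclear translocator homolog, had 75.5, 79.7 and 67.6 CPM (adjusted p = 0.0199 by the chi-square test).

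Of the globins not called hemoglobin 4 were tested and 2 varied, beside 54.5% of all records. EVm002068, described as globin, had 408, 352 and 481 CPM (414 ± 64.5, SD, n = 3), with replicate 2 lowest and replicate 3 highest, and EVm007706 had 6.50, 2.94 and 4.54 CPM.

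**Figure D5:**
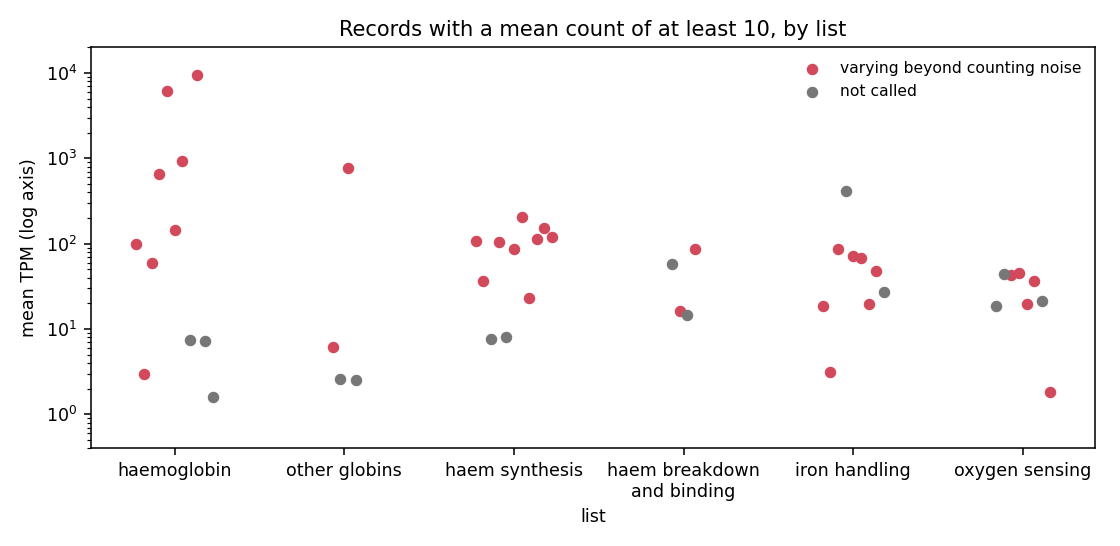
Mean TPM over the 3 libraries on a log axis of each record that averaged at least 10 counts, by list, in red where the record varied beyond counting noise by the chi-square test and grey where it did not pass. EVm020057 at 9559 TPM and EVm028977 at 6188 TPM lie above every record of the other lists, the highest of which is a globin at 776 TPM.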

How the data were processed

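The authors mapped the reads in CLC Genomics Workbench and deposited total counts per gene record, unnormalized, with RPKM and TPM values. A deposited signal named CPM equalled counts scaled by TMM. The version of genome and gene models was not given in the sources used here, nor was the use of strand. Records held 80.5% to 82.5% of the library reads behind the RPKM values. Descriptions and gene ontology terms are the authors' annotation.

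TMM factors and the biological coefficient of variation came from edgeR 4.0.16 (R 4.3.3), with DESeq2 1.42.0 size factors as an alternative. The chi-square test compared the 3 counts of a record with the TMM sizes (mean count of at least 10, adjusted p of at most 0.05, checked on simulated data). Transcript lengths were recovered from counts and RPKM. Records with a mean of at least 100 CPM were named with values in every library, and the 2 most abundant of each list. Lists were word matches in descriptions, and 3 matches of transferrin inside transferring were left out. The members and lists were chosen with earlier results of these data known. No contrast existed, since all samples formed 1 group. Python 3.11.15 and scipy 1.17.1 were used.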

Additional observations from a re-analysis of the deposited data

How the results depend on the processing

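The haemoglobin share of 1.69% lay between 1.54% and 1.78% when a library was left out. It was 1.90% with mitochondrial and vitellogenin records out of the total and 1.77% as a share of TPM. With the undescribed records of the cluster, an alternative chosen after seeing the data, it was 2.59%. The count of 8 of 11 records varying beyond counting noise was 6 to 8 when a library was left out: 6 of 11 without replicate 1 (29.0% of all records), 6 of 11 without replicate 2 (45.0%) and 8 of 10 without replicate 3 (38.6%). It was 8 of 11 under DESeq2 size factors (54.5%) and count totals (57.3%), 8 of 19 with no count filter (30.7%) and 7 of 7 at a mean count of at least 100 (69.3%). Of the records that overlapped no other, 2 of 2 varied, beside 50.1% of all such records. The log2 ratio of EVm020057 to EVm028977, 0.61 in TPM, was 0.51 to 0.77 when a library was left out and 0.43 in CPM, where length is not considered. The levels of the 5 records named with values moved by less than 1 SD in 25 of 25 alternatives. Leaving out 1 of 3 libraries cannot move a mean that far, so only the alternatives of scaling were informative. For EVm020057 these gave 8911 CPM with DESeq2 size factors and 8977 CPM with count totals, beside 8912 CPM. No paired analysis was possible because all libraries belonged to 1 group. Depth limits the records with few counts. Read sharing between overlapping models was not tested, and EVm007891 and EVm011664 overlapped none.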
